A study of Caenorhabditis elegans with 2 samples.

Results

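The 8 genes described here are the 6 vitellogenin genes of Caenorhabditis elegans, vit-1 to vit-6, and the intestinal GATA factor genes elt-2 and elt-7. They were chosen by name, out of 19973 protein-coding genes on the nuclear chromosomes of Ensembl release 115, and every deposited peak that overlapped the gene body or the 5 kb on either side of it was taken. The series is transcription factor ChIP-seq (chromatin immunoprecipitation followed by sequencing) on whole worms, with 1 group of 2 biological replicates. The worms were L4 larvae, the last larval stage, of strain OP355, pooled males and females, with the genotype unc-119(tm4063) III; wgIs355; the mutation and the transgene insertion are shared by both replicates. The labels differ on the tagged protein, since the description names eGFP-ZK337.2 while the strain and antibody fields name mdl-1. Which of these is right was not tested. Within 5 kb of mdl-1 there were 14 peaks of the IDR list, a number no coding gene exceeded, with a strongest signal of 1353. Within 5 kb of klu-1, the gene with sequence name ZK337.2, there was 1, with a signal of 92.4. These counts are a description and are not read as telling which protein was tagged. The part of the transgene insertion in them was not tested. The samples are of whole animals, so a site bound in the intestine alone cannot be told apart from one bound weakly in many tissues.

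Vitellogenins are yolk proteins. In C. elegans they are made in the intestine of the adult hermaphrodite, secreted into the body cavity and taken up by growing oocytes through the receptor RME-2. ELT-2 is the main GATA factor of the differentiated intestine, and ELT-7 acts beside it; both bind the sequence TGATAA, which recurs in the promoters of intestinal genes, vit genes included. MDL-1, of the Mad family of helix-loop-helix leucine zipper proteins, pairs with MXL-1 and binds E-boxes such as CACGTG. ZK337.2, or klu-1, encodes a zinc finger protein. The L4 stage comes just before yolk production starts in hermaphrodites.

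The sequences on which the results turn are the 200 bp around the summit of each of the 2 IDR peaks and the promoters of 3 vit genes, where no list had a summit. All were cut from the RefSeq genome of the ce11 build and are written 5′ to 3′ on the plus strand. Capitals mark the GATA site TGATAA, the E-box CACGTG, the repeat GAGAGA and the vit element TGTCAAT on either strand. TTATCA in capitals is the GATA site on the minus strand, and likewise ATTGACA is the vit element and TCTCTC the repeat. The peak 471 bp upstream of elt-2 lies at chrX:10480571-10480966, and the stretch shown is chrX:10480669-10480868. The peak in the vit-3 flank lies at chrX:3576259-3576654 and the stretch shown is chrX:3576357-3576556. The promoters run from 250 bp before the gene start to 50 bp after it, at chrX:5100792-5101091 for vit-2, chrX:3403221-3403520 for vit-5 and chrIV:8260907-8261206 for vit-6.
elt-2 promoter peak: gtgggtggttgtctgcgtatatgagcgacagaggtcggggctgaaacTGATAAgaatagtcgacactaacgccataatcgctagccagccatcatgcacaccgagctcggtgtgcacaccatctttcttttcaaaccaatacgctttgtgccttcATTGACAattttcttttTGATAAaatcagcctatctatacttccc
peak beside ckc-1 in the vit-3 flank: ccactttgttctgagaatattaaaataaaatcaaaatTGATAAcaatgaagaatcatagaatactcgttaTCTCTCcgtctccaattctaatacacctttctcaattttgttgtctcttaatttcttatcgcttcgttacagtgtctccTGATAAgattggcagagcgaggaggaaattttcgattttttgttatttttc
vit-2 promoter: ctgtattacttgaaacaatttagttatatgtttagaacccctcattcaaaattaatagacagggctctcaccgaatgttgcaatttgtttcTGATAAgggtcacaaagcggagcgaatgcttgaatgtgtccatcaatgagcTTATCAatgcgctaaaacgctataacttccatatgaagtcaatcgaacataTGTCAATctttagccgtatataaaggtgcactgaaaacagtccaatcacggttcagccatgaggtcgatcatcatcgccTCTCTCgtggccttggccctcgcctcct
vit-5 promoter: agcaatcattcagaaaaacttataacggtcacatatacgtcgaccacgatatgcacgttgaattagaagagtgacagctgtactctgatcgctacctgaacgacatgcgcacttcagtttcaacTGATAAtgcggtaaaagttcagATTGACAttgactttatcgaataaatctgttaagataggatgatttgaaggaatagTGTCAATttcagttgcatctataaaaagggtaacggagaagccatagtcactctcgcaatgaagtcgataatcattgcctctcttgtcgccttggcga
vit-6 promoter: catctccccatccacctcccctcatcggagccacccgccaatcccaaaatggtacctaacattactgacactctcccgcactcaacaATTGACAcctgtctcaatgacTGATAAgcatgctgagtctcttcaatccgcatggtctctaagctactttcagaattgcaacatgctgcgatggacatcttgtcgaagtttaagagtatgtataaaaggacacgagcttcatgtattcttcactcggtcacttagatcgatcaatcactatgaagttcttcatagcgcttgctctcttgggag

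A match is a description of the letters and not a bound site. TGATAA stood in the 300 bp promoter of 6 of 6 vit genes, with 1 or 2 copies each, and in that of both GATA genes, against 30.2% of all coding promoters. Its longer form CTGATAA, which contains it, is an element described in vit promoters. It was present in 5 of 6 vit promoters, that of vit-3 being without it, and in 0 of 2 GATA promoters, against 8.15% of all. TGTCAAT, another element described in vit promoters, was found in 6 of 6 vit promoters and 0 of 2 GATA promoters, against 5.77% of all. Both elements were picked because they are known from vit promoters, so these counts are no finding of these data. The E-box CACGTG was found in 0 of 8, against 5.82% of all coding promoters. GAGAGA was found in the promoters of vit-2 and elt-7, against 21.8% of all.

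The 4 deposited lists used were those of replicate 1 and of replicate 2, the pooled list and the IDR list. For the pooled list the replicates were merged before calling. The IDR list holds the peaks of the pooled list that passed the authors' threshold for irreproducible discovery rate. A place in it does not mean a peak in both replicate lists. Pooled peaks overlapped by a replicate 1 peak only numbered 5599 in all and 5594 outside the IDR list. For replicate 2 only, these were 4610 and 4601. The lists hold 4293 IDR, 27577 pooled, 29572 replicate 1 and 28282 replicate 2 peaks. The value given for each peak is its signal, the authors' own score from the peak caller, with no unit. The pooled signal ran from 10.6 to 1411 with a median of 17.4, and the IDR list held only peaks with a signal of 45.6 or more, with a median of 75.0. The replicate lists are on another scale, with medians of 9.91 and 9.79, so their signals are set beside the pooled ones and no difference between the scales is read. The pooled list was deposited as peaks and background meant as input for the IDR step. Its −log10 q ran down to 0.018, and a −log10 q near 0 is a q near 1. A listed pooled peak is therefore not always a significant one. Read depths are unknown, and no peak means no listed peak and not an absence of reads.

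Among the 8 genes, peaks of the IDR list were present at elt-2 and vit-3 alone. Of the 8 genes, 2 had an IDR peak in the gene body or within 5 kb, with 1 peak each, against 37% of all coding genes. On the X chromosome, where vit-1 to vit-5 and elt-2 lie, the share of all coding genes was 48.7%. Only the elt-2 peak had its summit in the promoter window, from 1000 bp upstream to 200 bp downstream of the gene start, so 1 of 8 genes had a promoter IDR summit, against 10.9% of all coding genes, and 0 of 6 vit genes did. Over 8 genes both counts are near the background and are not read as a result about these genes.

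Weaker entries, background included, were listed around nearly every one of the genes. At genes without an IDR peak, the strongest pooled peak had a −log10 q of 2.70 for vit-1 and 1.45 for vit-2. It was 0.81 for vit-4, 0.77 for elt-7 and 0.40 for vit-5. The pooled list placed 32 peaks at 7 of the 8 genes, against 82.1% of all coding genes with at least 1, and both replicate lists had a peak at 7 of the 8, against 80.3%. The gene without was vit-6 in each case. The replicate 1 list held 30 peaks at 7 of the genes and the replicate 2 list 25 peaks at all 8. By place, 14 pooled peaks had their summit in the 5′ flank, 3 overlapped the gene body and 15 lay in the 3′ flank. Of the 32, 8 had the described gene's own start as the nearest coding start. These were 4 of the 22 at vit genes and 4 of the 10 at elt-2 and elt-7. Neither the places nor the nearest starts were counted over all coding genes. They are therefore not read as a trait of these genes. The map of peak positions shows the 8 genes side by side.

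**Figure D1:**
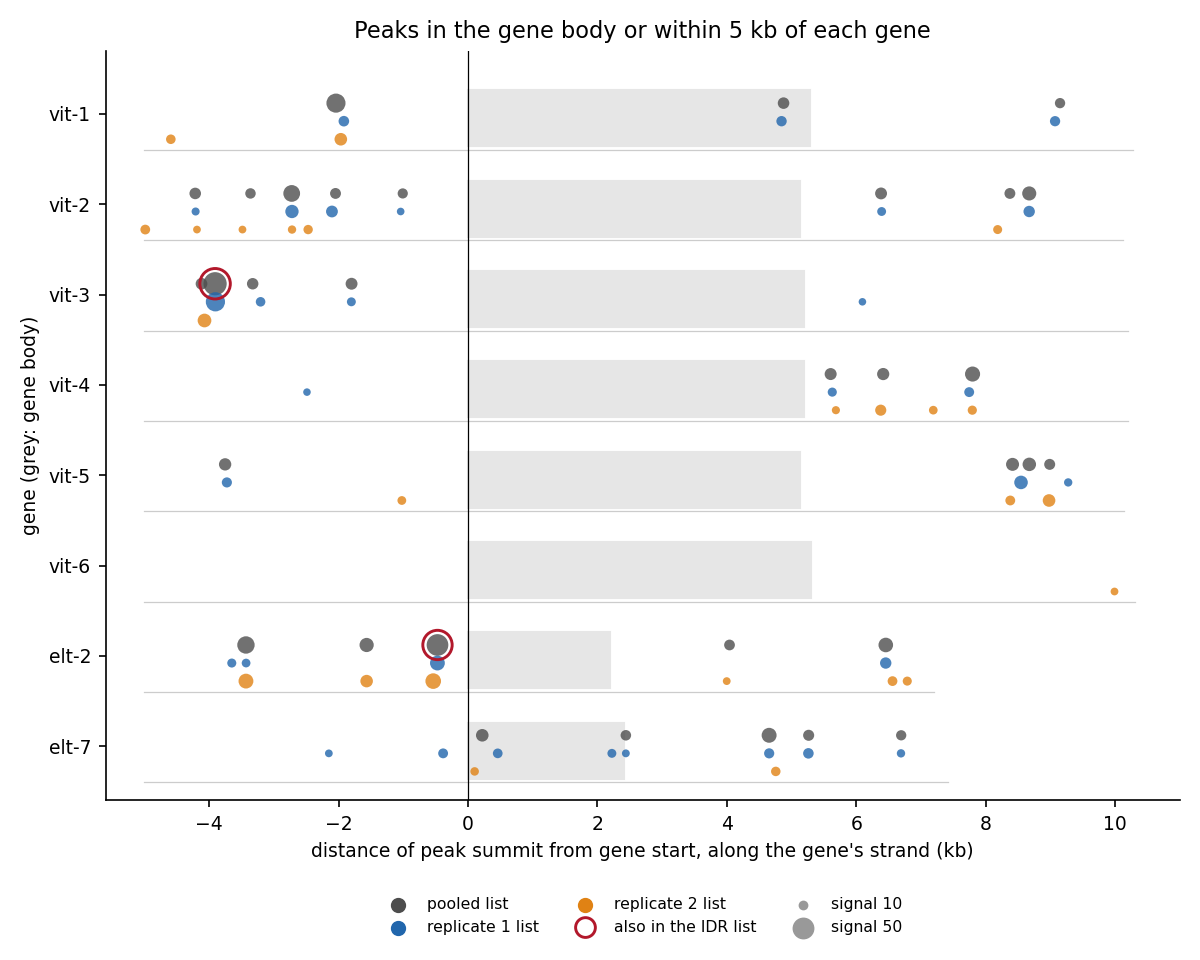
Peaks in the gene body (grey) or within 5 kb of the 8 genes; the horizontal axis is the distance of the peak summit from the gene start in kb along the gene's strand, each row is 1 gene, and a point is a peak of the pooled, replicate 1 or replicate 2 list with its area growing with signal. Red rings mark the 2 IDR peaks, 471 bp upstream of elt-2 and 3908 bp upstream of vit-3. By the Ensembl gene starts, no pooled summit lies within 1000 bp upstream of any vit gene. The nearest, 1008 bp upstream of vit-2, falls within 1000 bp by the RefSeq start of vit-2, position 5101032.

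elt-2 (WBGene00001250, chrX:10481240-10483441, plus strand) had the clearest promoter peak of the group. Its summit lay at position 10480769, in intergenic sequence, and elt-2 was the nearest coding start. The pooled signal was 49.2, with a deposited −log10 q of 3.41, and it ranked 3863 of the 4293 IDR peaks. The replicate 1 peak, with its summit 472 bp upstream, had a signal of 23.0 and ranked 4633 of that list, and the replicate 2 peak, 537 bp upstream, had 25.5 and ranked 3809. The peak was therefore listed in both replicates at about the same place, near the weak end of the IDR list. The 200 bp printed for it hold 2 copies of TGATAA, 1 of them in the form CTGATAA, and 1 of TGTCAAT, and neither CACGTG nor GAGAGA. The same peak is the only IDR peak within 5 kb of elt-4, another GATA factor gene.

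Of the other 4 pooled peaks of elt-2, 3 were listed unevenly in the replicates. A peak 3431 bp upstream, in an exon of C39B10.7, had a pooled signal of 31.6, next to 8.58 for replicate 1 and 23.1 for replicate 2. The log2 ratio of replicate 1 over replicate 2 was -1.43 there, and 1.38% of the 15897 pooled peaks listed in both replicates had a lower one. A peak 1566 bp upstream (21.1) and one 4042 bp downstream of the start (12.1) were listed in replicate 2 only, with 16.4 and 6.36. The last, at 6457 bp, had a pooled signal of 22.3, and each replicate listed it, at 13.6 for replicate 1 and 9.99 for replicate 2, a log2 ratio of 0.44.

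elt-7 (WBGene00015981, chrV:4770670-4773086, plus strand) had 5 pooled peaks and none in the IDR list. The one closest to its start had its summit 221 bp after it, in an intron, with a pooled signal of 16.6 that ranked 14767 of 27577. It fell just outside the promoter window, while 1 summit of each replicate list fell inside it, 384 bp upstream for replicate 1 (signal 10.2) and 103 bp downstream for replicate 2 (7.63). These are not the same position, and against the list medians the first signal is close and the second lower. In the promoter window by Ensembl gene starts, then, 1 of the 8 genes had a pooled summit, elt-2, against 38.9% of all coding genes. There, 2 had a replicate 1 summit, against 40.6%, and 2 a replicate 2 summit, against 39.7%, elt-2 and elt-7 each time. The strongest elt-7 peak lay 4654 bp from the start, past the gene's end, with 23.4 in the pooled list, 10.8 in replicate 1 and 9.43 in replicate 2. No motif of the 5 was found in the 200 bp around the summit at the elt-7 start.

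vit-3 (WBGene00006927, chrX:3567355-3572549, minus strand) carried the other IDR peak, but at a distance and beside other genes. The summit, at position 3576457, lay 3908 bp upstream of vit-3 and 149 bp before the start of ckc-1, which is named for choline kinase, and the coding gene T27A10.5 stands between it and vit-3. Its pooled signal was 56.3, with a −log10 q of 3.34, rank 3257 of 4293. Replicate 1 listed it at 38.7 (rank 2287) and replicate 2 at 19.7 (rank 5382) with the summit 17 bp inside ckc-1, a log2 ratio of 0.98, above that of 92.5% of the peaks listed in both. The 200 bp printed for it hold 2 copies of TGATAA, 1 of them CTGATAA, 1 of GAGAGA and no CACGTG. The other 3 pooled peaks of vit-3 had signals of 14.8, 13.8 and 14.3, and also lay 1799 bp or more upstream.

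vit-4 (WBGene00006928, chrX:3558769-3563965, minus strand), the neighbour of vit-3 on the same strand, had no pooled peak upstream. Its 3 pooled peaks lay 5605, 6417 and 7798 bp from its start, past its end and beside or within rgs-7, with signals of 15.1, 15.6 and 23.8. The strongest of them had 10.3 in replicate 1 and 8.84 in replicate 2. A lone replicate 1 peak between vit-3 and vit-4, with a signal of 5.99, counts for both genes.

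vit-1 (WBGene00006925, chrX:7727889-7733168, plus strand) had the highest signal of the group outside the IDR list. This peak, 2040 bp upstream and 130 bp before the start of spp-14, a saposin-like protein gene, had a pooled signal of 38.2, rank 5299 of 27577, with 11.8 in replicate 1 and 16.6 in replicate 2. A second peak, 4877 bp into the gene of 5280 bp, had a pooled signal of 14.0 and was listed in replicate 1 alone, at 11.3. It was the only pooled peak to overlap the body of a vit gene. Such a peak was thus present in 1 of the 6 vit genes, against 64.2% of all coding genes of 4500 to 6000 bp, a range chosen after seeing the lengths of the vit genes. The comparison is matched for length only. The bodies of vit-3, vit-4 and vit-5 are mostly not unique in the genome, as described below, and the part of this was not tested.

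vit-2 (WBGene00006926, chrX:5101042-5106169, plus strand) had 8 pooled peaks, more than any other of the genes; 6.35% of all coding genes had more, and the median gene had 3. Of these, 5 lay upstream, in the gap of 3974 bp to the next coding gene or over that gene, acn-1, an ACE-like gene. The strongest, 2724 bp upstream, had a pooled signal of 29.4, next to 18.6 for replicate 1 and 9.20 for replicate 2. The replicate 2 value is that of an overlapping peak with its summit 2470 bp upstream. Replicate 2 also listed a peak 2719 bp upstream, with 7.29. The one nearest to the start, 1008 bp upstream, had a signal of 10.9, near the lowest in the list, and was listed in replicate 1 only, at 6.11. Its pooled summit lay just outside the promoter window by the Ensembl start, 5101042, and just inside it by the RefSeq start, 5101032. The median of the 8 signals was 13.2, below the median of 17.4 of the whole list.

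vit-5 (WBGene00006929, chrX:3403471-3408603, plus strand) had 4 pooled peaks, and 3 of them lay together between 8416 and 8990 bp from its start, with signals of 17.7, 19.0 and 12.6. That stretch is past the neighbouring gene unc-78, which was the nearest coding start to all 3, and holds the microRNA gene cel-mir-271. The strongest peak of replicate 1 there (19.3) had its summit at 8547 bp and that of replicate 2 (16.7) at 8980 bp. The remaining peak lay 3753 bp upstream, in an exon of cht-1, a chitinase gene, with a pooled signal of 15.9 and 10.7 in replicate 1.

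vit-6 (WBGene00006930, chrIV:8261157-8266459, plus strand), the only autosomal vit gene, had the fewest peaks of the 8 within 5 kb. No IDR, pooled or replicate 1 peak lay within 5 kb of it, and replicate 2 listed a single peak, 9978 bp from the start in an intron of K07H8.5, with a signal of 6.33, a −log10 q of 0.04 and rank 26150 of 28282. Within 10 kb of vit-6 there were 2 IDR peaks, and its strongest pooled signal there, 105, was the highest of the 8 genes. The promoter printed above holds 1 TGATAA and 1 TGTCAAT.

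**Figure D2:**
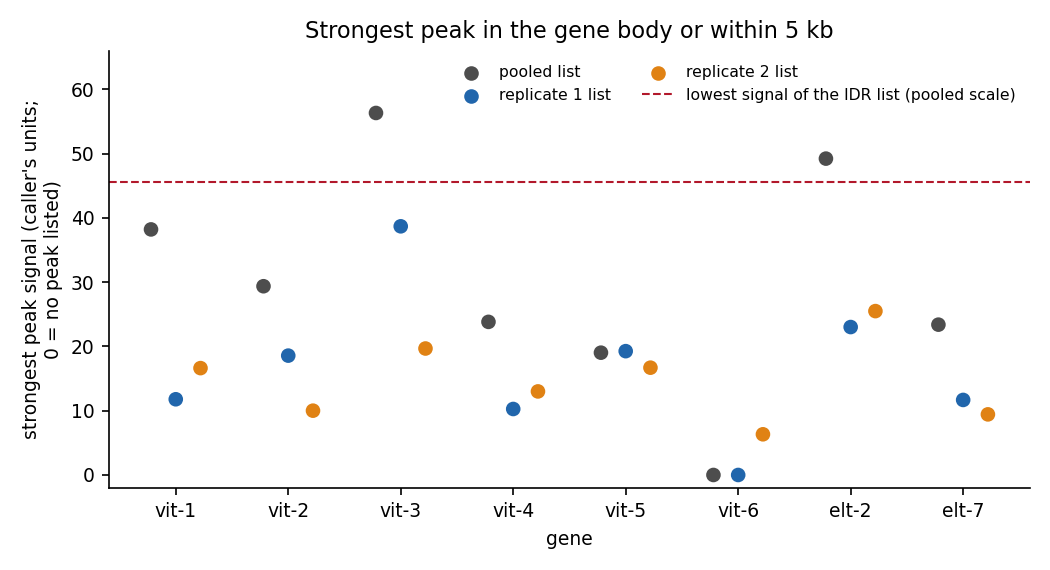
Strongest peak in the gene body or within 5 kb of each gene, in the caller's signal units, for the pooled list and each replicate list, with 0 where no peak is listed. The dashed line is the lowest signal of the IDR list, 45.6, on the pooled scale; the pooled points of vit-3 (56.3) and elt-2 (49.2) lie above it and those of the other genes below.

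Ordered by the strongest pooled signal within 5 kb, the genes ran vit-3 (56.3), elt-2 (49.2), vit-1 (38.2), vit-2 (29.4), vit-4 (23.8), elt-7 (23.4), vit-5 (19.0) and vit-6 with none. The pooled signals have no replicate error, so neighbours in this order, such as vit-4 and elt-7, cannot be separated. In replicate 1 vit-3 came first and elt-2 next, in replicate 2 elt-2 came first and vit-3 next, and vit-6 came last in all 3 lists. The order depends on the window: within 10 kb, vit-6 (105) and vit-5 (62.9) came before vit-3 (56.3) and elt-2 (49.2), and vit-2 (47.0) came next. vit-5 was the seventh in the pooled list and the third in each replicate list. Across all 15897 pooled peaks listed in both replicates, the log2 ratio of replicate 1 over replicate 2 had a median of 0.07 and an SD of 0.64. This SD is a spread among peaks and not the replicate error of a single peak. It leaves out the 5599 pooled peaks overlapped in replicate 1 only and the 4610 in replicate 2 only.

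Neither IDR peak was among the strongest 4293 peaks of both replicate lists, although both peaks were listed in each replicate. Among the strongest 4293 peaks of a replicate list, which is as many as the IDR list holds, the lowest signal was 24.5 in replicate 1 and 23.4 in replicate 2. The elt-2 peak was inside that number in replicate 2 (25.5) and narrowly outside it in replicate 1 (23.0). Its log2 ratio was -0.15, where the SD across peaks was 0.64. The vit-3 peak was inside that number in replicate 1 only (38.7) and outside it in replicate 2 (19.7). With replicate 2 left out and the strongest replicate 1 peaks used instead, vit-3 was the only gene with a peak within 5 kb and no promoter summit was left. With replicate 1 left out, elt-2 was the only gene. Of the 32 pooled peaks, 16 (50%) were overlapped by a peak of both replicate lists, 12 of replicate 1 only and 4 of replicate 2 only, against 57.6% of all pooled peaks overlapped in both. Neighbouring pooled peaks at vit-2, vit-3 and vit-5 share replicate peaks, so these are not counts of separate sites. Without the IDR peaks the shares were 46.7% of 30 and 49.9% of 23284.

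The strongest pooled signals of the 8 genes were set against those of all coding genes. The share of coding genes with a lower strongest signal was 70.3% for vit-3, 66.1% for elt-2, 57.5% for vit-1, 49.5% for vit-2, 43.3% for vit-4, 42.6% for elt-7 and 35.4% for vit-5. The 7 genes with a peak thus lay in the middle of the distribution, as the curve over all genes shows, where vit-3, elt-2 and vit-1 lie above the median of 29.8. Among coding genes with a peak the median was 40.3, and vit-3 and elt-2 lay above it.

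**Figure D3:**
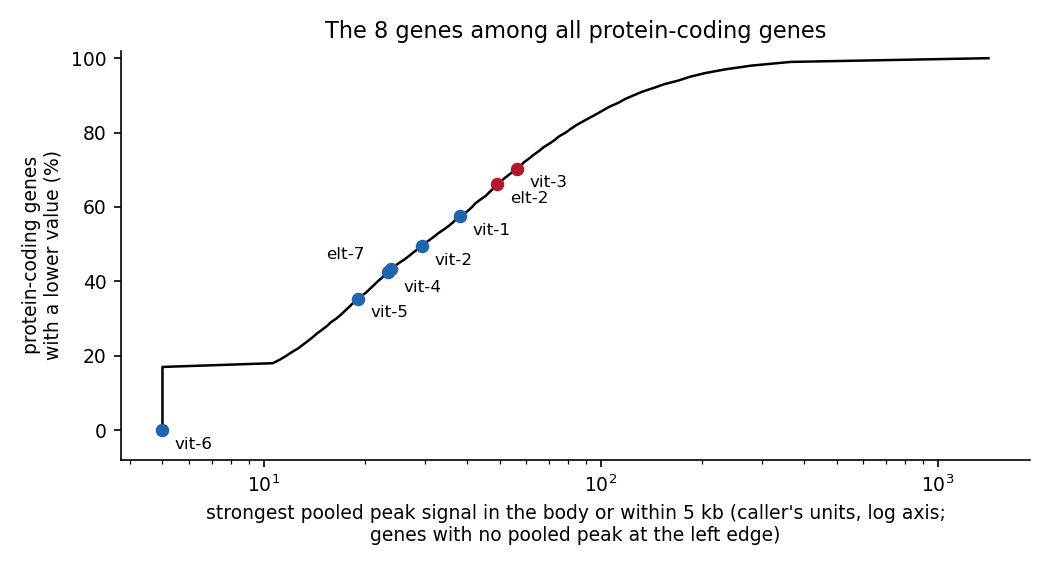
Share of coding genes (%) whose strongest pooled peak signal in the body or within 5 kb is lower than the value on the horizontal log axis (caller's units; genes with no pooled peak are drawn at the left edge). Points are the 8 genes, red for the 2 with an IDR peak, and they run from vit-6 with no peak to vit-3 at 70.3%.

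Most of the genes had their nearest IDR peak further out. The nearest IDR summit was 45296 bp from the start of vit-1 (signal 50.4, nearest coding start unc-18), 14775 bp from that of vit-2 (47.0, in an intron of apl-1) and 11419 bp from that of vit-5 (62.9, beside dhs-27). For vit-4 it was the ckc-1 peak already described, 12492 bp away, and for vit-6 a peak of signal 105, 8123 bp away. elt-7 was the most isolated, with its nearest IDR summit 50143 bp away (103, in an intron of adss-1), and 90.4% of coding genes had one nearer. Over all coding genes the median distance was 10782 bp. By this measure vit-3 and elt-2 stood nearer an IDR summit than the median gene, with 26.3% and 8.70% of genes nearer still, as did vit-6 with 42.1%.

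Motifs were also counted in the peaks near these genes. In the 200 bp around the 32 pooled summits CACGTG was found in 0, against 7.05% of all pooled and 18.4% of all IDR peaks, and GAGAGA in 5 (15.6%), against 21.7% and 43.9%. TGATAA was found in 11 (34.4%), against 22.2% and 26.2%. CTGATAA was found in 3 (9.38%), against 6.41% and 9.01%, and TGTCAAT in 3 (9.38%), against 4.33% and 4.71%. At 32 peaks a share rests on few counts, these are descriptions with no test, and no match says only that the letters are not in that window.

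Several vit genes are close copies of each other, which limits what a peak list can show there. The gene bodies of vit-3 and vit-4 were 97.2% identical in a global alignment, vit-3 and vit-5 95.6%, vit-4 and vit-5 95.7%, and vit-1 and vit-2 90.8%, while vit-6 was 56.1 to 57.4% identical to the others. Of the 31-base words in the body, the share found once in the genome was 19.4% for vit-3, 16.05% for vit-4, 38.9% for vit-5, 76.8% for vit-1 and 76.2% for vit-2, against a median of 100% over coding genes. The longest stretch without a unique word was 1805 bp, in vit-4. The sources used here give neither the read length nor the handling of reads with several matches, so peaks over these bodies are uncertain, and the part of sequence identity in the lack of body peaks was not tested.

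The promoters were less alike. Their windows were 83.4 to 100% unique in the vit genes, and 300 bp promoters of vit genes were 52.1 to 68.8% identical to each other. By the Ensembl gene starts, no pooled, IDR or replicate summit lay in any of these 6 windows. Over all coding genes, the share with a summit there was 38.9% for the pooled and 10.9% for the IDR list. It was 40.6% for replicate 1 and 39.7% for replicate 2, and the counts at 6 genes were not tested. The body and promoter window of vit-6 were both 100% unique and also held no peak of any of the 4 lists. With the 5 kb on either side included, vit-6 was 79.8% unique, against a median of 96.8% over coding genes. The part of sequence uniqueness in the peak counts was not tested. elt-2 was 100% unique in body and promoter window, and elt-7 95.9% in the body and 99.8% in the window, as the bars of uniqueness by gene show.

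**Figure D4:**
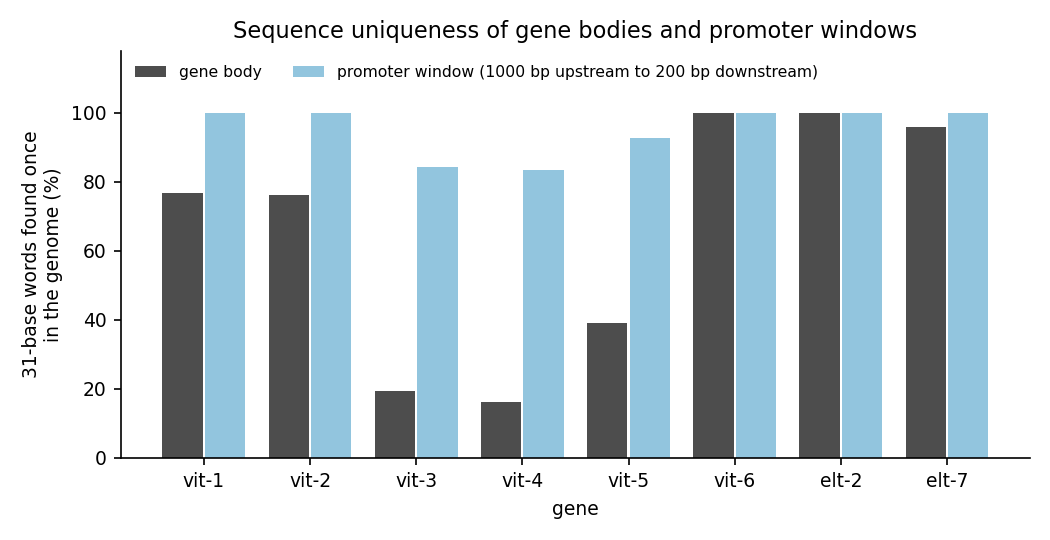
Share (%) of 31-base words found once in the ce11 genome, in the gene body (dark bars) and the promoter window (light bars) of each gene. The bodies of vit-3, vit-4 and vit-5 are at 19.4%, 16.05% and 38.9%, while all promoter windows are at 83.4% or more.

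Genes around the yolk pathway were counted for comparison. Of 11 genes for yolk production and uptake, 2 had a promoter IDR summit (18.2%), against 10.9% of all coding genes, and 9 an IDR peak within 5 kb (81.8%), against 37%. The 2 were ceh-60, a homeobox gene required for vit expression, at 650 bp upstream with a signal of 46.1 (replicate 1 25.2, replicate 2 20.6), and daf-16, the FOXO factor of insulin signalling, at 449 bp upstream with 142 (replicate 1 79.0, replicate 2 68.1). The yolk receptor gene rme-2, named after its value was seen, had no pooled peak within 5 kb. IDR peaks within 5 kb were thus listed for 1 of the 6 vit genes and for 9 of these 11 genes, with no test of the difference. This list and the 2 that follow were written with earlier results of these data known. The counts were not matched for gene length, and a longer gene has a longer window.

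Of 11 GATA factor genes, 1 had a promoter IDR summit, elt-2 (9.09%), and 6 had an IDR peak within 5 kb (54.5%), against 37% of all coding genes; elt-2 and elt-4 count by the same peak. Of 22 genes expressed in the intestine, 5 of the 8 described genes included, 2 had a promoter IDR summit (9.09%), elt-2 and mtl-1, and 10 had an IDR peak within 5 kb (45.5%), against the same 37%, with elt-2 and elt-4 again counting by 1 peak. mtl-1, a metallothionein gene, had a signal of 71.3 at 330 bp upstream, next to 31.2 for replicate 1 and 36.9 for replicate 2. The promoter shares of both lists are near the 10.9% of all coding genes. The median strongest pooled signal was 49.2 for the GATA genes, 104 for the yolk pathway genes and 39.8 for the intestinal genes, against 29.8 for all coding genes.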

How the data were processed

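The data are ChIP-seq peak lists from 2 replicates of 1 group. The deposited signal values and −log10 q values are the authors' own, per peak, on genome build ce11; caller, thresholds, aligner and read length: not given in the sources used here. Per the deposited file descriptions, the pooled list was called on both replicates together and the IDR list was derived from it and the replicate lists. Per the labels, fragments were 150 to 350 bp. The 4 lists on ce10 were not used.

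Peaks were assigned by an overlap of at least 1 bp with the gene body or 5 kb on either side, and promoter calls by the summit. Genes came from Ensembl release 115 and sequence from RefSeq. A replicate value is the strongest replicate peak overlapping a pooled peak. Global alignments scored 2, -3, -5 and -2 for match, mismatch, gap opening and extension. All 8 genes were named, with others nearer a described peak, named by the labels, or in a list with a promoter IDR peak. Also named, after their values were seen, were rme-2, elt-4 and the genes at the nearest IDR summits. The genes, lists and windows were chosen with earlier results of these data known. The sequence uniqueness, identity and gene length range were added after the peaks were seen. Left-out replicates, other windows and a higher signal limit were the alternatives. The counting was tested on simulated peaks. There is no second group, so no test was run. Python 3.11.15, numpy 2.4.6, pandas 2.3.3, matplotlib 3.10.9 and biopython 1.88 were used.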

Additional observations from a re-analysis of the deposited data

How the results depend on the processing

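Of the 8 genes, 2 had an IDR peak within 5 kb, with 2 peaks in all. Within 2 kb this was 1 gene with 1 peak (elt-2), against 24.1% of all coding genes, and within 10 kb it was 5 genes with 6 peaks (vit-2, vit-3, vit-5, vit-6 and elt-2), against 52.4%. Giving each peak to the nearest gene start left 1 gene and 1 peak (elt-2), with no share over all coding genes counted. Asking for a signal at or above the IDR median left 0 genes and 0 peaks, against 21.0% of all coding genes. With the strongest 4293 peaks of 1 replicate in place of the IDR list, the counts of genes and of peaks were 1 and 1. Leaving out replicate 1 the gene was elt-2, against 36.5% of all coding genes. Leaving out replicate 2 it was vit-3, against 36.1%. The single promoter summit became 0 at or above the IDR median and 0 to 1 when a replicate was left out. No share over all coding genes was counted for these promoter settings. The 7 genes with a peak in both replicate lists became 4 within 2 kb. No share over all coding genes was counted there, so this fall is not read as a result about these genes. They became 0 when each replicate's strongest peaks were used, against 30.2% of all coding genes. The strongest pooled signal took another value for 5 of 8 genes within 2 kb and for 4 of 8 within 10 kb. Within 10 kb, vit-6 (105) and vit-5 (62.9) came first in place of vit-3 (56.3) and elt-2 (49.2). The value was the same for 8 of 8 when the summit had to lie in the window. With 1 replicate left out, the strongest signals are those of the other replicate list. They are on another scale, so a change from the pooled values is not read. No paired analysis was possible because the series has 1 group. Depth is unknown, and a missing peak limits nothing below the caller's own limit.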
